A study of Mus musculus with 8 samples.

Results

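The genes described here are Slc7a11, the light chain of the cystine and glutamate exchanger, and 9 genes of the antioxidant programme driven by the transcription factor NRF2: Nfe2l2, which encodes NRF2 itself, Gclc, Gclm, Gsr, Srxn1, Txnrd1, Prdx1, Hmox1 and Nqo1. They were chosen by name, with earlier results of these data known. Every probe that the platform annotation assigns to one of them was taken. Of the 10 genes, 9 had a probe, 14 probes of 25697 on the array, and Gsr, glutathione reductase, was not analysed here. Of these, 8 genes with 11 probes exceeded background on both duplicates of 1 group or more and entered the tests over 9802 genes. The probe of Gclc, the catalytic subunit of glutamate-cysteine ligase, did not, and it has no comparison.

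The samples were peritoneal macrophages of C57BL/6 mice, either wild type or a knockout labelled Fcg-chain KO, which lacks the signalling chain shared by activating Fc receptors. How the knockout allele was made is not given in the sources used here. All 4 groups were plated overnight in RPMI with 10% FBS and 15% conditioned medium of L929 cells, a fibroblast line that secretes M-CSF, the growth factor of macrophages, and non-adherent cells were removed. Cells of each genotype were then left unstimulated or given IL-4, the cytokine of alternative macrophage activation, at 10 ng/ml for 6 h. Each group had 2 arrays, 8 in all. The labels tie no array to an animal, so the p-values reflect how far duplicates differ and no more, and that variation may be technical.

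NRF2 is held at a low level by KEAP1, which marks it for degradation, and it accumulates when oxidants or electrophiles modify KEAP1. With small MAF proteins as partners it binds antioxidant response elements near genes for glutathione synthesis, thioredoxin and peroxiredoxin recycling, quinone reduction and haem breakdown, while BACH1 represses some of the same genes. Slc7a11 imports cystine, the source of cysteine for glutathione in cultured cells, and it is also a target of ATF4, a transcription factor of the amino acid response.

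The promoters of 7 of the 9 measured genes were found in the RefSeq promoter table (mouse build GRCm38.p6), as windows from 250 bases before to 50 bases after each annotated start. The motif TGACNNNGC, the core of the antioxidant response element, was searched on both strands and was found in 5 of the 9 windows of these genes and in 12.4% of all 32851 windows. It lay before the start in Nfe2l2, Gclm, Prdx1 and 1 of the Txnrd1 windows, and past the start in Srxn1. The looser TGANNNNGC, which contains it, was found in 7 of the 9 windows and in 41.3% of all windows. The motif TGATGNAA, the core of the amino acid response element bound by ATF4, was found in the Slc7a11 window only among these genes, against 3.97% of all windows. It occurred there 2 times, on opposite strands, with their first bases at positions -66 and -47 from the start, and a TGANNNNGC match overlapped the second. The upstream 250 bases of 4 genes are shown 5′ to 3′ on the strand of the gene, because they hold these motifs. The capitals mark TGATGNAA in Slc7a11 and TGACNNNGC in the other three. Each match is a description of the letters and not of binding.

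Slc7a11, chr3:50443614-50443863, minus strand: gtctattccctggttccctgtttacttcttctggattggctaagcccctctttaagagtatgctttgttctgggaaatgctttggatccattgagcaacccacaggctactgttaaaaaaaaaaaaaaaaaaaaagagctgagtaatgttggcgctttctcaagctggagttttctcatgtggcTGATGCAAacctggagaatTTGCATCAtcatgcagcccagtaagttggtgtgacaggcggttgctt
Gclm, chr3:122245307-122245556, plus strand: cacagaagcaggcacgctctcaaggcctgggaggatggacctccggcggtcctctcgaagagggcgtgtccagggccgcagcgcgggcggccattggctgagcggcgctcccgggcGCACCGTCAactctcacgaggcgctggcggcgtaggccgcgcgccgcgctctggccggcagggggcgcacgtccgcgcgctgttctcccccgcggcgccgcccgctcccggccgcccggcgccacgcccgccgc
Prdx1, chr4:116685349-116685598, plus strand: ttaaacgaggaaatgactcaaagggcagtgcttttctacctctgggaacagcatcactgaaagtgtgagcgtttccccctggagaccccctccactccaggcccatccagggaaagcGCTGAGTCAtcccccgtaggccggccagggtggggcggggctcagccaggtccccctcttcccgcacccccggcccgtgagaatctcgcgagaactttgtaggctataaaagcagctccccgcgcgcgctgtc
Nfe2l2, chr2:75704664-75704913, minus strand: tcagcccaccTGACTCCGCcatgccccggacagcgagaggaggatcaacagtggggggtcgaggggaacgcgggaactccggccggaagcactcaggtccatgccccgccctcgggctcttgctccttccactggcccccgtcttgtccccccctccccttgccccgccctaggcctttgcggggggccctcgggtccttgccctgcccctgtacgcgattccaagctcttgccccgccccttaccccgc

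The deposited values were read as already normalized between arrays, so similar thresholds and shares across the 8 arrays cannot show like array quality. Between 53.8% and 54.6% of probes lay above the background threshold of 93.2 to 93.4 intensity units, and the duplicates of a group correlated at 0.9962 to 0.9965 over all probes (log2). Fcer1g, which encodes the deleted chain, measured 9915 to 12988 on the wild-type arrays and 85.7 to 91.8, below background, on the knockout arrays. Chil3, a standard IL-4 target, measured 122 and 128 in unstimulated wild-type cells against 4755 and 5856 with IL-4, and 107 and 103 against 4494 and 4674 in knockout cells. All 4 macrophage markers with a probe were above background on every array. The duplicates themselves differed in the antioxidant genes: in wild-type cells with IL-4 all 8 tested genes were higher on replicate 2 (48.6% of all genes were), in unstimulated knockout cells 7 of 8 were higher on replicate 1 (52.6%), and in knockout cells with IL-4 6 of 8 were higher on replicate 1 (50.1%).

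Slc7a11 stepped down across the 4 groups with no overlap between any of them. Its intensity was 1426 and 1251 in unstimulated wild-type cells and 497 and 779 in wild-type cells with IL-4. It was 412 and 366 in unstimulated knockout cells and 183 and 134 in knockout cells with IL-4. The highest knockout array was below the lowest wild-type array, IL-4 included. Slc3a2, the heavy chain that Slc7a11 needs to reach the membrane, had group means of 127, 117, 118 and 122 in the same order and passed no test. Its probe was dim, against a background threshold of 93.2 to 93.4, which limits the differences it can show.

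Glutathione synthesis was represented by Gclm, the modifier subunit of glutamate-cysteine ligase, the first enzyme of the pathway. Gclm measured 1093 and 1354 in unstimulated wild-type cells, 462 and 672 with IL-4, 732 and 547 in unstimulated knockout cells and 396 and 318 in knockout cells with IL-4. Both unstimulated wild-type arrays were above all others, and both knockout arrays with IL-4 were below all others. The middle groups overlapped. Gclc, its catalytic partner, lay between 89.3 and 96.4 on all 8 arrays and was above the background threshold on 1 of them.

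Among the thioredoxin-linked enzymes, Srxn1, sulfiredoxin, which restores over-oxidised peroxiredoxins, measured 1248 and 1163 in unstimulated wild-type cells, 770 and 827 with IL-4, 795 and 636 in unstimulated knockout cells and 556 and 426 in knockout cells with IL-4. Its highest values were again the unstimulated wild-type arrays and its lowest the knockout arrays with IL-4. Txnrd1, thioredoxin reductase, was close to background throughout, at 112 and 117 in unstimulated wild-type cells, 106 and 118 with IL-4, 97.0 and 96.1 in unstimulated knockout cells and 99.5 and 102 in knockout cells with IL-4. Every wild-type array was above every knockout array for Txnrd1. Prdx1, peroxiredoxin 1, was bright on all arrays, at 10516 and 11736 in unstimulated wild-type cells, 10170 and 10844 with IL-4, 11428 and 9314 in unstimulated knockout cells and 8432 and 7733 in knockout cells with IL-4. Only its knockout arrays with IL-4 stood below the rest.

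Hmox1, haem oxygenase 1, which breaks haem down to biliverdin, iron and carbon monoxide, separated by the stimulus. It measured 5873 and 6251 in unstimulated wild-type cells, 2325 and 3370 with IL-4, 6803 and 4596 in unstimulated knockout cells and 2494 and 1590 in knockout cells with IL-4. All unstimulated arrays were above all IL-4 arrays, and the genotypes overlapped in both conditions. Nqo1, the NADPH-dependent quinone reductase, separated by genotype. It measured 163 and 159 in unstimulated wild-type cells, 138 and 157 with IL-4, 118 and 110 in unstimulated knockout cells and 109 and 99.2 in knockout cells with IL-4. Every wild-type array was above every knockout array, as it was for Nfe2l2. Nfe2l2 measured 232 and 194 in unstimulated wild-type cells, 188 and 192 with IL-4, 149 and 155 in unstimulated knockout cells and 132 and 136 in knockout cells with IL-4.

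**Figure D1:**
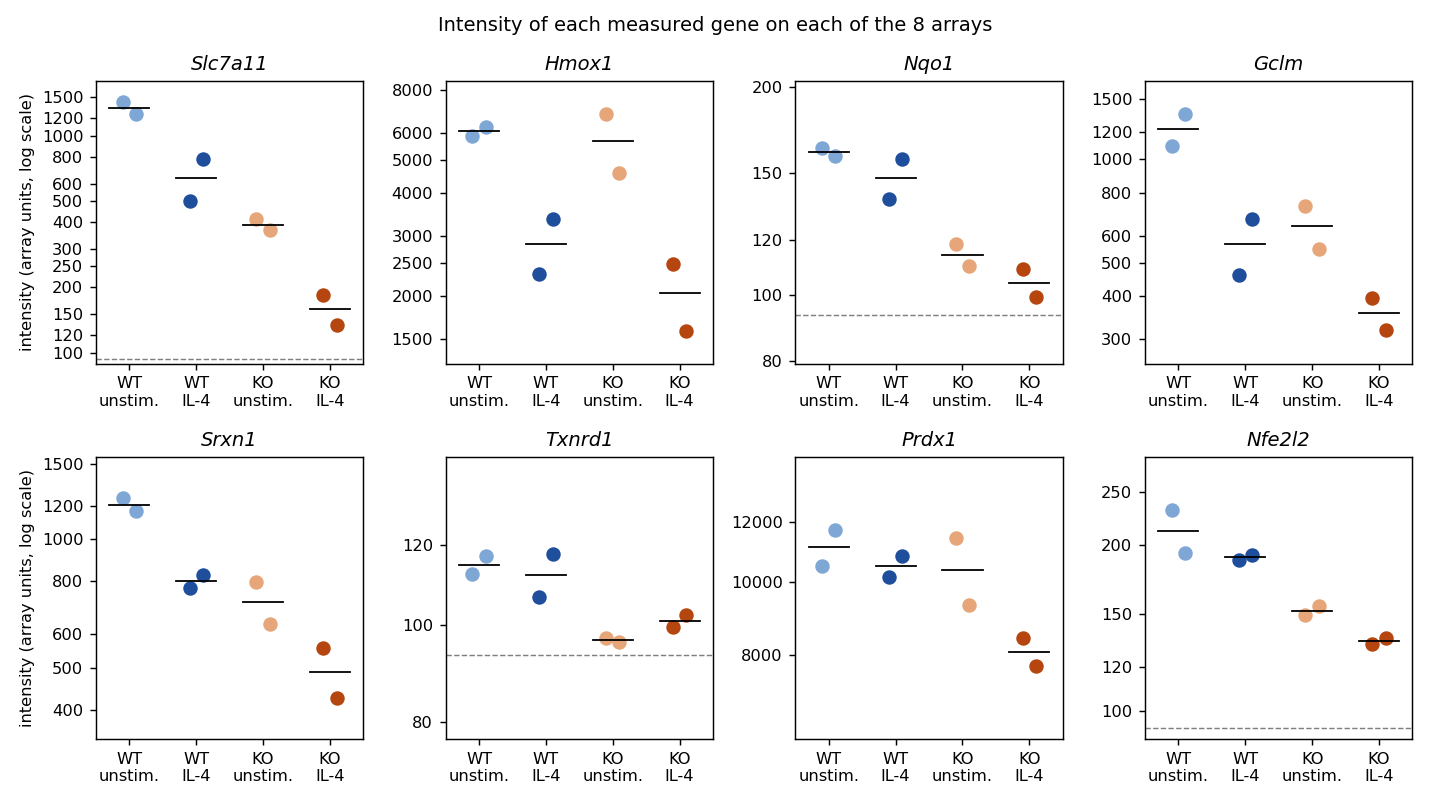
Intensity of each of the 8 tested genes on each array (y axis, array units, log scale) in the 4 groups (x axis), 1 point per array, with the group mean as a horizontal bar and the background threshold as a dashed line where it is in range. Slc7a11 falls from 1426 and 1251 in unstimulated wild-type cells to 183 and 134 in knockout cells with IL-4, with no overlap between groups, while Hmox1 separates by IL-4 and Nqo1 and Nfe2l2 separate by genotype.

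In the absence of IL-4, knockout macrophages expressed less of 6 of the 8 tested genes, including the transcription factor and the cystine carrier, and more of none. Of all 9802 genes, 2.64% were called lower and 2.63% higher (limma, threshold of 0.05 on p-values adjusted by Benjamini-Hochberg). Slc7a11 was 3.94-fold lower (log2 difference -1.98 ± 0.23 SE, adjusted p = 0.000195). Gclm was 2.03-fold lower (-1.02 ± 0.20, adjusted p = 0.00786), Nqo1 1.97-fold (-0.98 ± 0.16, adjusted p = 0.00214), Srxn1 1.77-fold (-0.82 ± 0.15, adjusted p = 0.00391), Nfe2l2 1.68-fold (-0.75 ± 0.14, adjusted p = 0.00463) and Txnrd1 by -0.66 ± 0.14 on the log2 scale (adjusted p = 0.0123). Hmox1 did not pass (-0.12, 95% interval -0.58 to 0.35), nor did Prdx1 (-0.11, -0.33 to 0.11). The median of the 8 genes was -0.79 against 0.00 for all genes tested, and in 6 of the 8 both knockout arrays were below both wild-type arrays, as in 21.3% of all genes.

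The unstimulated comparison rested on few arrays for several genes. Leaving out replicate 2 of the unstimulated knockout left 3 of the 6 calls: Gclm (-0.79, adjusted p = 0.112), Srxn1 (-0.64, adjusted p = 0.0594) and Txnrd1 (-0.64, adjusted p = 0.092) no longer passed. Further calls were lost without replicate 1 of the unstimulated wild type (Srxn1, adjusted p = 0.0506; Nfe2l2, -0.56, adjusted p = 0.0626), without its replicate 2 (Gclm, adjusted p = 0.114; Txnrd1, adjusted p = 0.113) and without replicate 1 of the unstimulated knockout (Txnrd1, adjusted p = 0.0659). With a robust estimate of the spread Gclm did not pass (adjusted p = 0.105). Slc7a11 and Nqo1 passed under all 18 alternatives. Without background correction the calls of Nqo1, Nfe2l2 and Txnrd1 were kept at smaller differences (-0.50, -0.48 and -0.25), so the fold of these dim probes depends on that correction.

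With IL-4 present, 6 of the 8 genes were lower in knockout than in wild-type cells and none was higher, against 2.67% and 2.45% of all genes. Slc7a11 showed the widest gap, at 6.17-fold (-2.62 ± 0.23, adjusted p = 1.1e-05), which was 3.97-fold (-1.99) without background correction. Nqo1 was 2.13-fold lower (-1.09 ± 0.16, adjusted p = 0.000964), Nfe2l2 1.82-fold (-0.87 ± 0.14, adjusted p = 0.0017) and Srxn1 1.74-fold (-0.80 ± 0.15, adjusted p = 0.00439). Gclm (1.70-fold, -0.76 ± 0.20, adjusted p = 0.0451) and Prdx1 (1.30-fold, -0.38 ± 0.10, adjusted p = 0.0484) passed narrowly. Hmox1 (-0.51, 95% interval -0.97 to -0.04, adjusted p = 0.254) and Txnrd1 (-0.39 ± 0.14, adjusted p = 0.163) did not pass over all genes. The median of the 8 genes was -0.78 against 0.02 for all genes tested, and in 7 of 8 the knockout arrays were below the wild-type arrays without overlap, as in 20.9% of all genes.

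Slc7a11, Nqo1 and Nfe2l2 passed under all 18 alternatives, Nqo1 and Nfe2l2 at -0.50 and -0.51 without background correction. Gclm missed the threshold in 10 of the 18 (adjusted p up to 0.398, without replicate 2 of wild type with IL-4) and Prdx1 in 9 (up to 0.302, without replicate 2 of the knockout with IL-4). Leaving out the one or the other of these arrays also cost the call of Srxn1 (adjusted p = 0.0526 and 0.0613) and left 3 of the 6 calls in each case. Hmox1 passed only without replicate 1 of the knockout with IL-4 (-0.84, adjusted p = 0.0476).

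**Figure D2:**
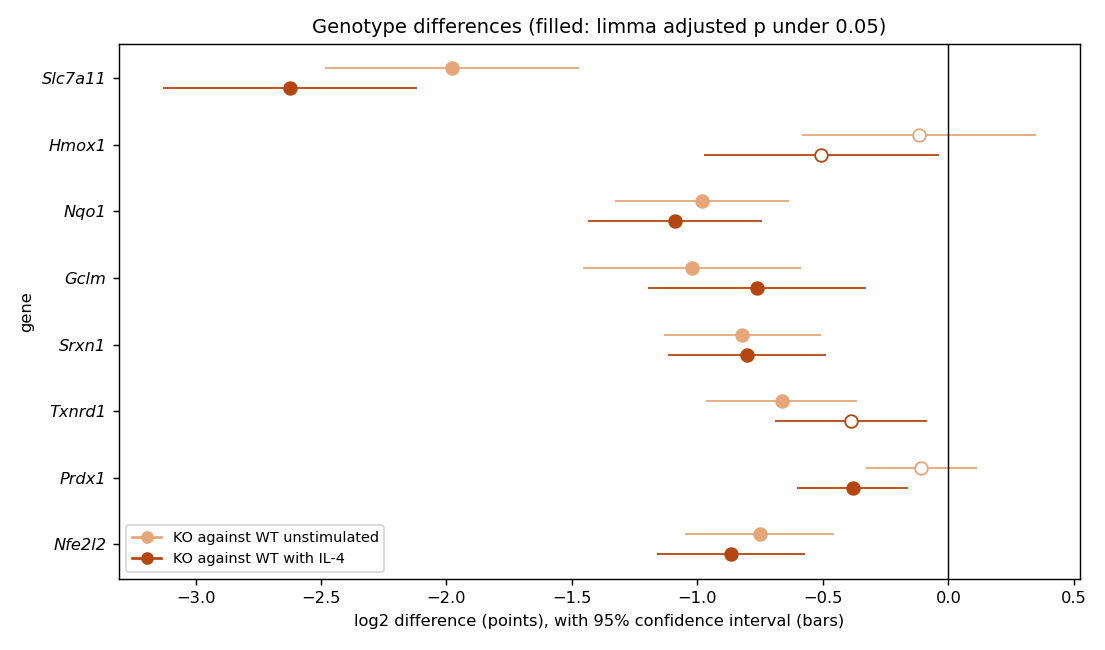
Log2 difference of knockout minus wild type for the 8 tested genes (x axis, points, with 95% confidence intervals as bars), unstimulated and with IL-4, with filled points past the threshold and open points not. Slc7a11 lies at -1.98 and -2.62, and the intervals of Hmox1 and Prdx1 in unstimulated cells include 0.

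Some markers of macrophages and of other cells differed between the genotypes. The 4 macrophage markers summed to 19880 to 21300 over the wild-type arrays and 21550 to 22490 over the knockout arrays. Most of that sum was Lyz2, with group means of 17560 to 18300. Adgre1, a surface receptor of mature macrophages, was 0.60 and 0.59 log2 units higher in knockout cells without and with IL-4. Itgam (0.45 and -0.04) and Mertk (0.33 and 0.42) did not pass, nor did Lyz2 (-0.0 and 0.06). The summed intensity of 4 large peritoneal macrophage markers was 4223 to 4288 in unstimulated wild-type cells and 9133 to 9872 in unstimulated knockout cells, and 4392 to 4439 against 7535 to 8296 with IL-4. Vsig4, a complement receptor of these cells, was 1.52 and 1.19 log2 units higher in knockout cells without and with IL-4 (adjusted p = 9.79e-07 and 6.91e-06), and Gata6, their defining transcription factor, 0.74 and 0.46 (adjusted p = 0.000321 and 0.00979). Most of the sum was Vsig4, with group means of 2650, 2492, 7471 and 5585 in the order unstimulated wild type, wild type with IL-4, unstimulated knockout and knockout with IL-4. The other two markers did not pass: Icam2 differed by 0.23 and 0.17 (adjusted p = 0.584 and 0.693), and Timd4 by -0.52 and -0.22 (adjusted p = 0.229 and 0.669), with both knockout arrays below both wild-type arrays in unstimulated cells. The 4 T and NK cell markers summed to 435 to 549 over the wild-type arrays and 571 to 654 over the knockout arrays, and 3 of them were higher in knockout cells with IL-4, Cd3d by 1.20. The summed neutrophil markers were 2408 to 2674, 1386 to 1546, 1770 to 1891 and 1282 to 1507 in that order, with S100a9 and Ngp not above background in any group. Most of this sum was S100a8, with group means of 2041, 1003, 1370 and 945 in that order. S100a8 was lower in unstimulated knockout cells (-0.60, adjusted p = 0.0151) but did not pass with IL-4 (-0.10, adjusted p = 0.771). It fell with IL-4 in wild-type (-1.08, adjusted p = 8.34e-05) and knockout cells (-0.58, adjusted p = 0.00664). Retnlg, Camp and Elane lay near background, with group means of 84.7 to 117. Retnlg was lower in knockout cells without and with IL-4 (-1.06 and -0.73, adjusted p = 0.00214 and 0.0268). Camp and Elane passed neither genotype comparison. The part of these cell types in the antioxidant differences was not tested. In bulk RNA, fewer cells of a type and less RNA per cell cannot be told apart. The summed mast cell markers (967 to 1595) and B cell markers (1305 to 2211) overlapped between the genotypes in both conditions. Not every single mast cell marker overlapped, though none passed. Mcpt4 was lower in knockout cells without overlap, unstimulated and with IL-4 (-0.67 and -0.60, adjusted p = 0.0572 and 0.0975). Tpsb2 was so in unstimulated cells only (-0.74, adjusted p = 0.141), and Cpa3 and Cma1 overlapped in both conditions. The eosinophil markers Epx and Prg2, the dendritic cell markers Flt3 and Cd209a, and Msln, Col1a1 and Col3a1 of mesothelium and fibroblasts were not above background in any group. Zbtb46, the third dendritic cell marker, exceeded background on both arrays of both IL-4 groups only (group means 92.3, 99.8, 90.4 and 96.0), and Upk3b of mesothelium on both arrays of both knockout groups only (93.0, 90.1, 95.9 and 94.8). Neither passed a test, with Upk3b 0.14 and 0.25 log2 units apart between genotypes (adjusted p = 0.638 and 0.301).

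IL-4 lowered Slc7a11, Hmox1, Gclm and Srxn1 in both genotypes. In wild-type cells 4 of the 8 genes fell and none rose, against 8.65% and 7.86% of all genes: Gclm 2.35-fold (-1.23 ± 0.20, adjusted p = 0.000895), Slc7a11 2.29-fold (-1.19 ± 0.23, adjusted p = 0.00324), Hmox1 2.19-fold (-1.13 ± 0.22, adjusted p = 0.00271) and Srxn1 (-0.64 ± 0.15, adjusted p = 0.00823). Nqo1 (-0.23 ± 0.16), Nfe2l2 (-0.23 ± 0.14), Txnrd1 (-0.09 ± 0.14) and Prdx1 (-0.08 ± 0.10) did not pass, with adjusted p from 0.312 to 0.738. The median of the 8 was -0.43 against -0.02 for all genes, and 6 of 8 had both IL-4 arrays below both unstimulated arrays, as had 29.5% of all genes. Srxn1 missed the threshold without replicate 1 of the unstimulated wild type (adjusted p = 0.0752) or of the wild type with IL-4 (adjusted p = 0.061). With a robust estimate of the spread, Slc7a11 (adjusted p = 0.085) and Hmox1 (adjusted p = 0.109) did too, which left 2 of the 4 calls.

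In knockout cells 5 of the 8 genes fell with IL-4 and none rose, against 9.92% and 9.44% of all genes. Slc7a11 fell 3.59-fold (-1.84 ± 0.23, adjusted p = 0.0001, and -1.31 without background correction), Hmox1 2.87-fold (-1.52 ± 0.22, adjusted p = 0.000239), Gclm 1.96-fold (-0.97 ± 0.20, adjusted p = 0.00389), Srxn1 by -0.62 ± 0.15 (adjusted p = 0.00857) and Prdx1 1.28-fold (-0.36 ± 0.10, adjusted p = 0.0256). Nqo1 (-0.34 ± 0.16), Nfe2l2 (-0.34 ± 0.14) and Txnrd1 (0.19 ± 0.14) did not pass, with adjusted p from 0.108 to 0.41. The median was -0.49 against -0.01 for all genes. In 7 of 8 genes the IL-4 arrays were below the unstimulated arrays without overlap, as in 30.4% of all genes, and in Txnrd1 they were above, as in 28.0%. Without replicate 1 of the unstimulated knockout only Slc7a11 and Hmox1 passed (Gclm -0.74, adjusted p = 0.0554; Srxn1 -0.44, adjusted p = 0.106; Prdx1 -0.21, adjusted p = 0.256). Without replicate 2 of the knockout with IL-4, Srxn1 (-0.40, adjusted p = 0.116) and Prdx1 (-0.29, adjusted p = 0.173) were lost. Gclm also missed the threshold with a robust estimate of the spread (adjusted p = 0.0515), and Prdx1 with the mean of its probes (-0.26, adjusted p = 0.143) and with no variance trend (adjusted p = 0.0782).

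**Figure D3:**
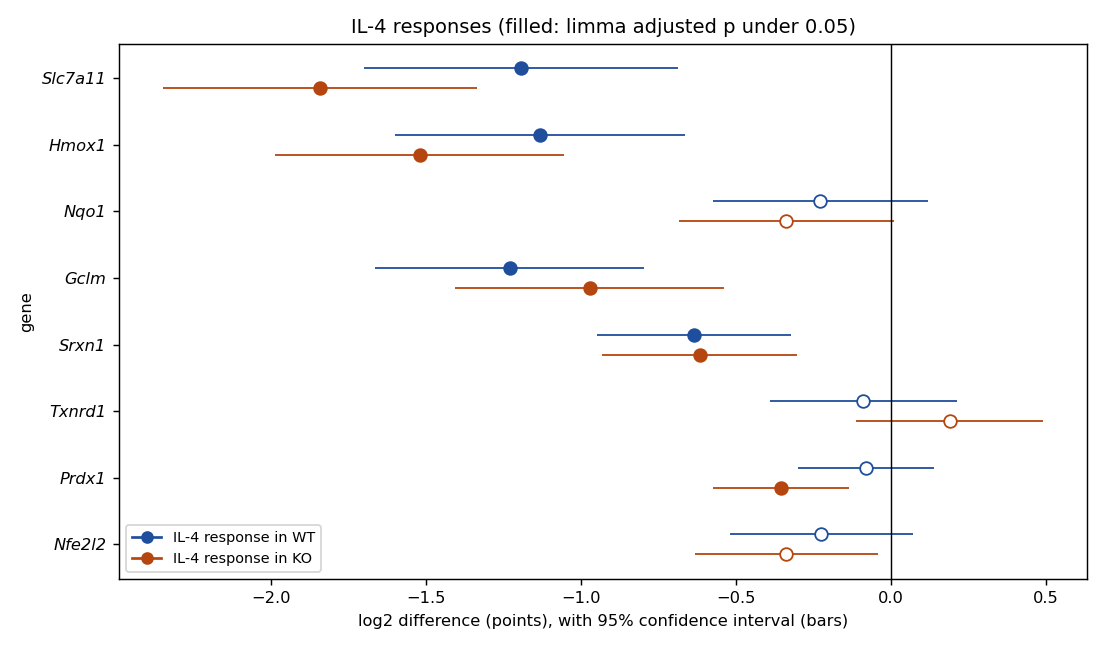
Log2 difference of IL-4 minus unstimulated for the 8 tested genes (x axis, points, with 95% confidence intervals as bars) in wild-type and knockout cells, with filled points past the threshold and open points not. Slc7a11, Hmox1, Gclm and Srxn1 lie below 0 in both genotypes, and the Slc7a11 points are -1.19 and -1.84.

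The difference between the IL-4 responses of the genotypes passed for none of the 8 genes, against 0.122% of all genes called in either direction (limma interaction term, 12 genes), and none of the 8 had an unadjusted p under 0.05. The estimates leave room for differences of some size. For Slc7a11 the knockout response was 0.65 log2 units more negative (-0.65 ± 0.33, 95% interval -1.36 to 0.07, adjusted p = 0.812), and -0.21 without background correction. For Hmox1 the difference was -0.39 ± 0.31 (-1.05 to 0.27, adjusted p = 0.872) and for Gclm 0.26 ± 0.29 (-0.36 to 0.87, adjusted p = 0.905). The 4 comparisons share arrays in pairs, so the genotype differences without and with IL-4 are set side by side and are not independent of the responses.

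Several probes of a gene did not always give one answer. All 3 Srxn1 probes were lower in knockout cells, at -0.55, -0.67 and -0.82 without IL-4 and -0.78, -0.80 and -0.80 with it, all past the threshold in a limma fit over 14353 probes. With IL-4 in wild-type cells they gave -0.32, -0.44 and -0.64, and the first did not pass (adjusted p = 0.126). The 2 Prdx1 probes disagreed. The second, dimmer probe measured 124 and 129 in unstimulated wild-type cells, 101 and 110 with IL-4, 109 and 102 in unstimulated knockout cells and 100.2 and 101 in knockout cells with IL-4, so that only the unstimulated wild-type arrays stood apart. It was lower in unstimulated knockout cells (-0.61 ± 0.14, adjusted p = 0.0253) and fell with IL-4 in wild-type cells (-0.60 ± 0.14, adjusted p = 0.0124), where the bright probe did not pass, and it did not pass in the other 2 comparisons, where the bright probe did. The second probes of Nqo1 (85.6 to 93.0) and Nfe2l2 (84.9 to 91.2) did not pass the background filter.

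Over the 8 arrays, the log2 values of Slc7a11 correlated with those of Srxn1 at r = 0.98, Nqo1 at 0.95, Nfe2l2 at 0.93, Gclm at 0.92, Prdx1 at 0.87, Hmox1 at 0.73 and Txnrd1 at 0.69. Hmox1 was closest to Gclm (0.88) and far from Txnrd1 (0.13). These values describe 8 arrays that fall into 4 groups, and the arrays share the group differences above. Among all other genes tested, the 5 nearest to Slc7a11 were Acpp (r = 0.988), Smox (0.984), Gadd45a (0.979), Pla2g7 (0.976) and Dram1 (0.975). Gadd45a, a growth arrest and DNA damage gene, had group means of 882, 497, 345 and 212 in the order unstimulated wild type, wild type with IL-4, unstimulated knockout and knockout with IL-4. The 5 nearest to Hmox1 were Pqlc3 (0.992), Lrba (0.985), Tmem43 (0.98), Pef1 (0.978) and Vegfa (0.975), and Vegfa, the vascular growth factor, had group means of 346, 172, 261 and 145.

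The regulators around NRF2 changed in few cases, close to the share of all genes. Keap1 had group means of 408, 384, 398 and 384 and no difference past the threshold (adjusted p from 0.608 to 0.993). Bach1, the repressor of Hmox1, measured 142, 173, 138 and 158, and its difference with IL-4 in wild-type cells did not pass (0.48 ± 0.18, adjusted p = 0.0884). Of the 11 tested genes on the list of NRF2 regulators and partners, IL-4 raised 1 and lowered 2 in each genotype, 0 were higher and 1 lower in unstimulated knockout cells, and 1 was higher and 1 lower with IL-4 (medians -0.06, -0.10, -0.04 and -0.04). In these comparisons, in the same order, 7.86%, 9.44%, 2.63% and 2.45% of all genes were called higher and 8.65%, 9.92%, 2.64% and 2.67% lower. At those shares the list would hold 0.27 to 1.09 genes in either direction, near its counts of 0 to 2, so these are not a result about the list. Sqstm1, the autophagy receptor p62 that binds KEAP1 and is itself an NRF2 target, had group means of 1865, 1294, 1338 and 709. It was lower in knockout cells without IL-4 (-0.51, adjusted p = 0.0145, lost without replicate 2 of either unstimulated group, up to 0.182) and with IL-4 (-0.93, adjusted p = 0.000135), and it fell with IL-4 in wild-type (-0.55, adjusted p = 0.00368) and knockout cells (-0.98, adjusted p = 3.63e-05). Fyn, a Src-family kinase, rose with IL-4 by 1.28 and 1.72 log2 units and was 0.73 higher in knockout cells with IL-4, but by 0.61, 0.97 and 0.47 without background correction. The other gene lowered by IL-4 in both genotypes was Mafg, a small MAF partner (-0.38 and -0.40). Its call in wild-type cells was lost without replicate 2 of the unstimulated group (-0.28, adjusted p = 0.199) or replicate 1 with IL-4 (-0.28, adjusted p = 0.216) and with no variance trend (adjusted p = 0.0599). In knockout cells it was lost without replicate 2 of the unstimulated group (-0.32, adjusted p = 0.163) or replicate 1 (-0.43, adjusted p = 0.0641) or 2 with IL-4 (-0.37, adjusted p = 0.117).

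Haem and iron genes other than Hmox1 were lower in knockout cells in several cases. Of the 16 tested, 3 were lower in unstimulated knockout cells and 5 with IL-4, and none was higher, with list medians of -0.03 and -0.13, and without replicate 2 of the unstimulated wild type 1 of the 3 was left. At the shares of all genes called, 0.42 and 0.43 genes of the list would be lower, and 0.42 and 0.39 higher. That none was higher is near these shares and is not a result about the list. Alas1, which starts haem synthesis, had group means of 4203, 5929, 2131 and 2000. It was 3.07-fold lower in knockout cells with IL-4 (-1.62 ± 0.17, adjusted p = 6.1e-05) and 1.99-fold lower without (-0.99 ± 0.17, adjusted p = 0.00372, and 0.0812 with robust eBayes or, at -0.80, 0.0732 without replicate 2 of the unstimulated wild type). Slc48a1, the lysosomal haem exporter HRG1, differed by -1.26 with IL-4 (adjusted p = 9.92e-05) and -0.62 without (adjusted p = 0.0215, and 0.0538 with no variance trend, or -0.48 with 0.218 and 0.21 without replicate 2 of the unstimulated wild type and knockout), and Blvrb, biliverdin reductase B, -0.57 and -0.58 (adjusted p = 0.00268 and 0.0024). IL-4 raised 1 gene of the list in each genotype, the transferrin receptor Tfrc (0.96 in wild type and 1.17 in knockout), and lowered 3 and 4 (medians 0.02 and -0.14), among them Blvrb (-0.76 and -0.75) and Hmox2 (-0.47 and -0.68). At the shares of all genes called, IL-4 would raise 1.26 and 1.51 of the 16 and lower 1.38 and 1.59. The raised counts are near these and are not a result about the list.

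The wider glutathione, thioredoxin and detoxification genes gave more calls in the IL-4 responses than between genotypes, as all genes did. Of 39 other glutathione and thioredoxin genes, IL-4 raised 1 and lowered 11 in wild-type cells (median -0.09) and raised 2 and lowered 9 in knockout cells (median -0.16), while 1 was higher and 6 lower in unstimulated knockout cells (0.02) and 0 and 3 with IL-4 (-0.03). Of 21 NADPH-producing and detoxifying enzymes, IL-4 lowered 11 in each genotype and raised none (medians -0.39 and -0.38), against 1 higher and 3 lower in unstimulated knockout cells (-0.14) and 1 and 2 with IL-4 (-0.06). At the shares of all genes called, IL-4 would lower 3.37 and 3.87 of the 39 and 1.82 and 2.08 of the 21. It would raise 3.06 and 3.68 of the 39 in wild-type and knockout cells, and up to 1.98 of the 21. The counts of raised genes lay below these by few genes and are not a result about the lists. Between genotypes, without and with IL-4, 1.03 and 1.04 of the 39 and 0.55 and 0.56 of the 21 would be lower. In the same order, 1.03 and 0.95 of the 39 and 0.55 and 0.51 of the 21 would be higher. The counts of higher genes between genotypes are near these and are not a result about the lists. No test compared the counts of either list between comparisons. Leaving out any 1 of the 4 wild-type arrays left 6 or 7 of the 11 glutathione genes lowered by IL-4, and any 1 of the 4 knockout arrays 5 or 6 of the 9. For the enzymes lowered by IL-4, 6 of 11 were left without replicate 2 of the unstimulated wild type or replicate 1 of wild type with IL-4, 6 without replicate 1 of the unstimulated knockout and 5 without replicate 2 of the knockout with IL-4. Of the genes lower in unstimulated knockout cells, 2 of the 6 glutathione genes were left without replicate 2 of the wild type and 3 without replicate 2 of the knockout, and 1 of the 3 enzymes without either of these or replicate 1 of the wild type. With IL-4, 0 of 3 glutathione genes and 1 of 2 enzymes were left without replicate 2 of the wild type, and 1 of each without replicate 2 of the knockout.

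Named examples came from both lists. Catalase, Cat, which breaks down hydrogen peroxide, had group means of 264, 163, 245 and 146 and fell with IL-4 in wild-type (-1.02 ± 0.22, adjusted p = 0.00542, but 0.0572 without replicate 2 of the unstimulated group) and knockout cells (-1.09, adjusted p = 0.00309, and -0.71 without background correction). Me1, malic enzyme, an NADPH source, fell in wild-type cells (-0.94, adjusted p = 0.00162, and -0.39 without background correction). Taldo1 of the pentose phosphate pathway had group means of 4774, 3278, 3965 and 2510 and fell in knockout cells (-0.68). Its mean was lower with IL-4 in wild-type cells too, as that of Me1 was in knockout cells (114 and 102). The difference between the IL-4 responses passed for none of the 21 enzymes. Mgst3, a microsomal glutathione transferase, fell in both (-0.92 and -0.73, and -0.55 and -0.48 without background correction), while Gsto1, an omega-class transferase, rose (0.92 and 1.25). Between genotypes, Sod2, the mitochondrial superoxide dismutase, had group means of 7251, 7121, 3639 and 2855 and was 2.02-fold lower in unstimulated knockout cells (-1.01 ± 0.10, adjusted p = 5.37e-05) and 2.53-fold lower with IL-4 (-1.34, adjusted p = 2.74e-06). Gstp1, a pi-class glutathione transferase, was 1.95-fold lower in unstimulated knockout cells (-0.96 ± 0.12, adjusted p = 0.000295). Txn1, thioredoxin, measured 330, 305, 296 and 257 in group means and passed no test.

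ATF4 targets, a second programme that holds Slc7a11, were raised by IL-4 in part, while Slc7a11 fell. Of 25 tested genes other than Slc7a11, IL-4 raised 6 and lowered 2 in each genotype, with medians of 0.10 in wild-type and 0.18 in knockout cells, where the shares of all genes would give 1.96 and 2.36 raised and 2.16 and 2.48 lowered. Slc7a5, the large neutral amino acid carrier that pairs with Slc3a2, had group means of 285, 742, 264 and 727 and rose 3.08-fold in wild-type cells (1.62 ± 0.10, adjusted p = 2.35e-07) and 3.33-fold in knockout cells (1.74 ± 0.10, adjusted p = 9.05e-08). Shmt2, a mitochondrial enzyme of one-carbon metabolism, rose by 0.95 and 1.16, or 0.51 and 0.62 without background correction, and Atf3, a stress-induced transcription factor, by 1.01 and 0.74, the latter lost without replicate 1 of the knockout with IL-4 (adjusted p = 0.0589). Ddit4, an inhibitor of mTOR signalling, fell by 0.86 and 0.85, or by 0.50 and 0.45 without background correction. Between genotypes none was higher and 2 were lower in each condition (medians -0.13 and -0.03). The shares of all genes would give 0.66 and 0.61 higher and 0.66 and 0.67 lower, so these counts are not a result about the list. Asns, asparagine synthetase, was among the lower genes in both conditions (-0.67 and -0.68, adjusted p = 0.00991 and 0.00941). None of the 2 was left without replicate 2 of either unstimulated group or, with IL-4, of the wild type, and 1 was left without replicate 1 of either unstimulated group or replicate 2 of the knockout with IL-4. The call of Asns was lost without replicate 1 (-0.67, adjusted p = 0.0684) or 2 (-0.67, adjusted p = 0.0721) of the unstimulated wild type or replicate 2 of the unstimulated knockout (-0.54, adjusted p = 0.123), and with IL-4 without replicate 2 of the wild type (-0.64, adjusted p = 0.0899) or replicate 1 of the knockout (-0.51, adjusted p = 0.0981). On the list of cystine, cysteine and gamma-glutamyl cycle genes, which shares Slc7a5, 2 of 13 rose and 2 fell with IL-4 in wild-type cells and 3 rose and 1 fell in knockout cells, and none differed between genotypes (medians -0.12, -0.06, -0.01 and 0.05). These counts lay within 1.77 genes of what the shares of all genes give for 13 genes and are not a result about the list. In wild-type cells 0 were lowered when any 1 of the 4 wild-type arrays was left out and 1 was raised without replicate 1 of either group. In knockout cells 2 were raised without replicate 1 of the unstimulated group and 1 without any other knockout array.

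**Figure D4:**
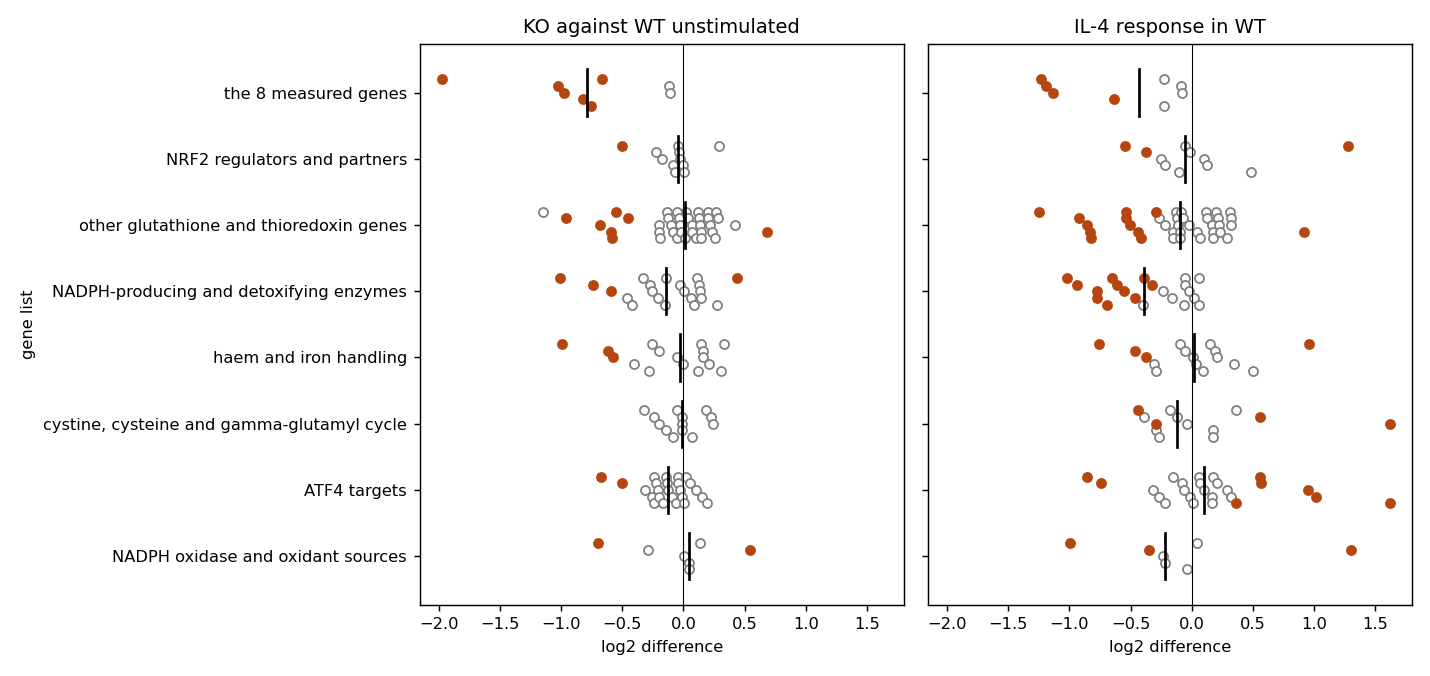
Log2 differences (x axis) of the tested genes of each list (rows), for knockout against wild type in unstimulated cells and for IL-4 in wild-type cells. Each point is 1 gene, filled where it passed the threshold and open where it did not, and vertical bars mark list medians. The 8 antioxidant genes in the top row all lie below 0 in both panels, with medians of -0.79 and -0.43.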

How the data were processed

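Total RNA was labelled as biotinylated cRNA and hybridised to Illumina Mouse Ref-8 v2.0 bead arrays, per the labels' protocols. Each deposited value is the normalized intensity of a probe, not on a log scale. GenomeStudio is the tool given in the submitters' processing notes. The sorted values of the 8 columns differ by at most 0.57 intensity units and begin at 78.4, so the table was read as normalized between arrays without background subtraction. A second table was left out: none of its 16 columns, 8 of them signals, has a heading that matches a sample label.

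Of 25697 probes, 23978 had 1 gene symbol in the platform annotation, 0 had several and 1719 had none; 23962 matched RefSeq genes of GRCm38.p6 by Entrez ID. A probe counted as above background over the mode of the low values plus 1.645 SD of the values below that mode, and the 14353 probes that exceeded it on both duplicates of 1 group or more were kept. Intensities were corrected with normexp (saddle, offset 16), and log2 values of 1 probe per gene, that with the highest mean, were fitted with limma 3.58.1 in R 4.3.3 (lmFit and eBayes with a variance trend) in 1 model of 4 group means. 9802 genes were tested, and p-values were adjusted by Benjamini-Hochberg in each comparison. All adjusted p-values are from this limma test. The 4 pairwise comparisons and the difference of the responses make 5 comparisons. The number of arrays limits the precision, with 4 residual degrees of freedom, and an exact permutation test of 2 against 2 cannot go below p = 0.333. The script was tested on simulated data.

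Groups came from the sample titles. The members and the 7 lists were chosen with earlier results of these data known. Named list genes were, per list and comparison, up to 4 past the threshold with the largest differences and no overlap between groups, of which examples are given, plus Keap1, Bach1, Slc3a2 and Txn1; for Slc7a11 and Hmox1, the 5 most correlated genes. 18 alternatives were run, covering background correction, offset, filters, probe choice, normalization, variance model, the replicate block and leaving out each array; a replicate block within each genotype was added after seeing the data.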

Additional observations from a re-analysis of the deposited data

How the results depend on the processing

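Of 21 calls among the 8 tested genes, 8 passed in all 18 alternatives, and of 720 results for single genes under alternatives, 663 kept their direction and side of the threshold. Many of the 720 could hardly change, since leaving out an array of a group outside a pairwise comparison keeps its difference as it was. Results that did not pass in the reported fit counted as kept when they again did not pass with the same direction. The counts of genes past the threshold were 4 (IL-4 in wild type), 5 (IL-4 in knockout), 6 (genotype, unstimulated), 6 (genotype, IL-4) and 0 (difference of responses). Leaving out 1 array gave 3 to 4, 2 to 5, 3 to 6, 3 to 6 and 0, and robust eBayes gave 2 for IL-4 in wild type. The labels do not say what the replicate numbers mark, and deviations of same-numbered arrays correlated at 0.15 and 0.23 within a genotype and at -0.093 to 0.0063 otherwise. The fit with the replicate number as a block gave 4, 5, 6, 6 and 0 and changed no call. A replicate block within each genotype, chosen after seeing the data, could be fitted for the IL-4 responses and their difference and gave 4, 5 and 0 of the 8 genes. Over all genes it called 2267, 2481 and 89, with 2 residual degrees of freedom and a prior worth 31.6 (4 and 9.28 in the fit reported). The sign turned only in values that never passed the threshold. Leaving out 1 array gave -0.26 to 0.0829 for Txnrd1 with IL-4 in wild type, and unstimulated genotype differences of -0.40 to 0.17 for Hmox1 and -0.26 to 0.0411 for Prdx1. The difference of responses ranged from -0.29 to 0.0714 for Nqo1, -0.0486 to 0.57 for Gclm, -0.20 to 0.24 for Srxn1 and -0.30 to 0.0743 for Nfe2l2, and with the mean of probes it was -0.11 for Srxn1 and 0.0764 for Prdx1. The cause was not tested.

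Without background correction the dim genes kept their calls at smaller differences: Nqo1 -0.50 in both genotype comparisons, Nfe2l2 -0.48 unstimulated and -0.51 with IL-4, and Txnrd1 -0.25 unstimulated. Signal over background thus limits the fold of dim genes. Over all genes, leaving out 1 array lowered the calls from 1618 to 978 (without replicate 2 of wild type with IL-4), 1897 to 1129 (replicate 2 of the knockout with IL-4), 517 to 293 (replicate 2 of the unstimulated wild type), 502 to 257 (replicate 2 of wild type with IL-4) and 12 to 3 (replicate 2 of either unstimulated group or of wild type with IL-4). The 12 genes with different responses became 4 when every array had to be above background and 19 without background correction. Of 81 calls among the list genes the naming rule takes, 45 passed in all 18 alternatives, 36 missed the threshold in at least 1, and 0 changed sign.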

Other observations

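The enzymes that make oxidants were a small list, 7 tested genes of NADPH oxidase and other oxidant sources. IL-4 raised 1 and lowered 2 in wild-type cells (median -0.22) and raised 2 and lowered 1 in knockout cells (median -0.12). At the shares of all genes called (7.86% and 8.65% in wild-type, 9.44% and 9.92% in knockout cells, and 2.45% to 2.67% between genotypes), the list's counts in either direction lay within 1.39 genes of the background and are not a result about the list. In wild-type cells 1 was lowered without replicate 1 of either wild-type group, and in knockout cells 1 was raised without either unstimulated array or replicate 1 with IL-4. Xdh, xanthine dehydrogenase, rose by 1.30 in wild-type (adjusted p = 3e-06) and 0.81 log2 units in knockout cells. Ncf1, the p47phox organiser of the phagocyte oxidase, fell by 1.00 (adjusted p = 0.000156) and 0.99. Between genotypes 1 gene was higher and 1 lower in unstimulated cells (median 0.05) and 0 were higher and 1 lower with IL-4 (median 0.06); without replicate 1 of either unstimulated group none was higher. Ncf4, the p40phox subunit, was lower in unstimulated knockout cells (-0.70, adjusted p = 0.000289, past the threshold in all 18 alternatives), and with IL-4 at -0.43 its call was lost without replicate 1 (-0.44, adjusted p = 0.0512) or 2 (-0.43, adjusted p = 0.0683) of the wild type or replicate 2 of the knockout (-0.37, adjusted p = 0.121).

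The differences between duplicates had a direction in these genes. On the log2 scale the median of replicate 1 minus replicate 2 over the 8 tested genes was -0.34 in wild-type cells with IL-4, 0.27 in unstimulated knockout cells and 0.38 in knockout cells with IL-4, against 0.01, 0.01 and 0.00 over all genes, and -0.01 in unstimulated wild-type cells.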
